A study of Homo sapiens with 6 samples.

Results

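The respiratory chain genes described here are the protein-coding genes whose symbols name a subunit of complexes I to V of oxidative phosphorylation, in the nuclear or the mitochondrial genome. They were chosen by symbol: those starting with NDUFA, NDUFB, NDUFC, NDUFS, NDUFV, UQCR, COX4I, COX5, COX6, COX7, COX8, ATP5F1, ATP5M or ATP5P, the genes SDHA to SDHD and CYC1, and the MT-ND, MT-CO, MT-CY and MT-ATP genes. The rule found 111 genes among the 60483 listed, 98 in the nuclear genome and 13 in the mitochondrial genome. It also takes in 8 NDUFAF genes, which encode assembly factors rather than subunits, and 2 readthrough genes.

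RNA was sequenced from A2780 cells, a human ovarian carcinoma line, in 2 groups of 3 libraries: parental cells of WT genotype (WT) and a CDK12 KO clone derived from them (KO). CDK12 is a kinase that phosphorylates RNA polymerase II. The KO was made with a CRISPR/Cas9 plasmid aimed at exon 1 of CDK12 and is a single clone, so the effect of the knockout and the history of that clone cannot be told apart. Both groups grew in the same medium, no drug treatment is given for either, and nothing says whether the 3 libraries of a group came from separate cultures, so p-values measure only the spread between libraries, which may be technical.

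The respiratory chain passes electrons from NADH (complex I) and succinate (complex II) through coenzyme Q to complex III, then by cytochrome c to complex IV, which reduces oxygen. Complexes I, III and IV pump protons, and complex V, the ATP synthase, uses the gradient to make ATP. Complex II is encoded wholly in the nucleus, whereas the other complexes combine nuclear subunits with a few core subunits made from mitochondrial DNA, which is copied into long transcripts from a heavy- and a light-strand promoter and then cut into single RNAs. Many of the nuclear subunit genes are known to carry sites for the factors NRF1, GABPA (an ETS factor), YY1 and SP1 near their start.

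Total counts were between 11098400 and 30899045 per library, lowest in WT replicate 3, where 3 counts, the limit that a count of 0 allows, correspond to 0.270 CPM (counts scaled to the size of the library). CDK12 RNA itself was 115 ± 11.1 CPM over the WT libraries and 98.0 ± 4.64 CPM over the KO libraries (SD, n = 3 in each group), 14.9% lower, a count that sums all exons and does not test the edit. Markers of the labelled cell were mostly at low levels: of 10 epithelial and ovarian carcinoma markers, KRT7 and MUC16 had at most 3 counts in every library and 4 passed the filter, with a summed level of 69.6 to 75.4 CPM in WT and 116 to 121 CPM in KO. The summed level of 6 fibroblast markers (COL1A1, COL1A2, COL3A1, PDGFRB, DCN and LUM) was 11023 to 11389 CPM in WT and 8529 to 8808 CPM in KO. In the test described below, 5 of the 6 were lower in KO at an adjusted p under 0.05, against 32.0% of all genes tested, and 1 was not called. For 4 of them the log2 fold change was below -1, and the median of the 6 was -2.14. Of 8 leukocyte and endothelial markers, 5 had at most 3 counts in every library. The summed level of the 8 was 0.901 to 0.991 CPM in WT and 1.40 to 1.93 CPM in KO. The part of these differences in the results below was not tested, and in bulk RNA fewer cells of a type cannot be told apart from less RNA per cell.

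The respiratory chain genes differed little between A2780 WT and CDK12 KO cells. Of the 111 genes, 102 passed the filter on low counts and were tested: 19 were higher in KO, 38 were lower and 45 were not called at an adjusted p under 0.05 (edgeR's quasi-likelihood test, Benjamini-Hochberg adjustment over all 16198 genes tested). Over all genes tested, 31.9% were higher and 32.0% were lower, so the share of chain genes called higher (18.6%) was below that background and the share called lower (37.3%) was near it. The sizes were small. The median log2 fold change of the chain genes was -0.07, against 0.0004 over all genes, and 98 of the 102 lay within 0.5 of 0 on the log2 scale, as did 10727 of all 16198 genes.

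Only 1 chain gene rose and 1 fell past both thresholds, which add to the adjusted p a log2 fold change of more than 1 in either direction. Over all genes tested, 8.30% rose and 7.73% fell past these thresholds. The WT and KO libraries did not overlap for 58 chain genes (56.9% of those tested), against 66.4% over all genes. An exact permutation test of 3 libraries against 3 cannot go below p = 0.1 for any of them. Summed over the 98 nuclear chain genes, the share of all counts was 0.976% ± 0.0281 in WT and 0.971% ± 0.0262 in KO, which overlapped (exact permutation test, two-sided, p = 0.8).

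By complex, the median log2 fold change lay between -0.09 and -0.004, and the NDUFAF assembly factors had a median of 0.07. In complex I 10 of 43 genes tested were higher and 16 were lower, in complex II 1 of 4 was higher and 1 lower, and in complex III 1 of 11 was higher and 4 were lower. In complex IV 4 of 17 were higher and 7 lower. Complex V had 2 of 19 higher and 9 lower. These counts are to be read against the 31.9% of all genes tested that were higher and the 32.0% that were lower. Differences between the complexes were not tested. Of the 8 NDUFAF genes 1 was higher and 1 lower, and leaving them and the readthrough genes out gave 18 higher and 37 lower among 94 genes tested. The plot of fold changes by complex shows the genes with their standard errors.

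**Figure D1:**
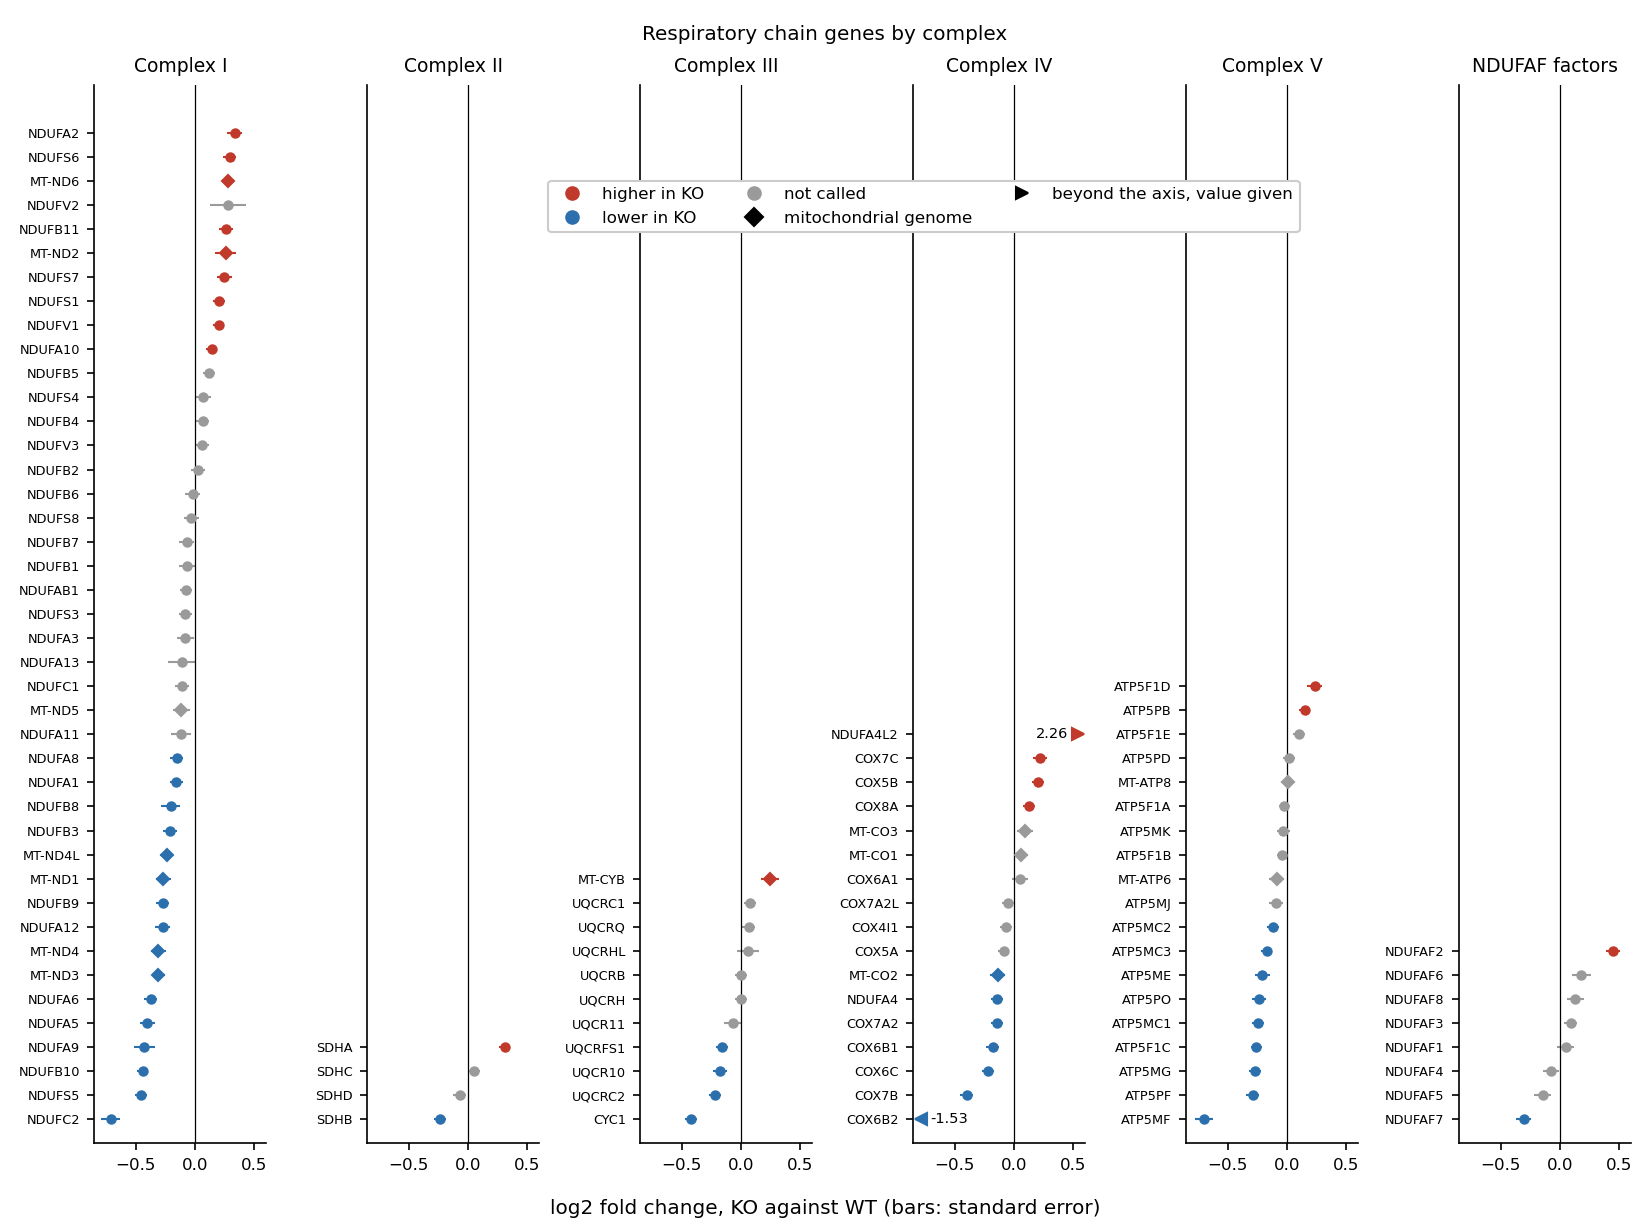
Log2 fold change (KO against WT, x axis) of the respiratory chain genes, in a panel for each complex and for the NDUFAF assembly factors. Points are genes (diamonds: mitochondrial genome), bars are standard errors, and colours give the call at an adjusted p under 0.05. Arrowheads mark NDUFA4L2 (2.26) and COX6B2 (-1.53), which lie beyond the axis, and NDUFC2 (-0.71) and ATP5MF (-0.70) are the lowest points within it.

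The gene that rose most was NDUFA4L2 (ENSG00000185633, GRCh38 chr12:57234903-57240715, minus strand), a relative of the complex IV subunit gene NDUFA4 and known as a target of hypoxia-inducible factors. Its level was 0.949, 0.734 and 0.900 CPM in the WT libraries and 4.40, 3.75 and 4.10 CPM in the KO libraries. Every KO library stood above every WT library, although the gene remained weakly expressed, with 10 to 26 counts per WT library and 73 to 108 per KO library. The log2 fold change was 2.26 (SE 0.193, adjusted p = 5.80e-12), and it was between 2.11 and 2.37 in every alternative fit.

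NDUFA4 itself, far more abundant, was lower by 0.15 on the log2 scale (180 ± 8.26 CPM in WT and 163 ± 7.38 CPM in KO, adjusted p = 0.0111), a call lost without KO replicate 3. As a share of the counts of the pair, NDUFA4L2 went from 0.477% ± 0.0628 in WT to 2.45% ± 0.253 in KO (p = 0.1 in a two-sided exact permutation test of the log2 ratio, the smallest 3 against 3 can give). Its nearest tested neighbours on chromosome 12, taken by position on each side, were also called: SHMT2 (0.71), NXPH4 (1.95), STAC3 (0.96), R3HDM2 (0.16) and INHBC (3.13) were higher on the log2 scale, and LRP1 was lower (-1.38).

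COX6B2 (ENSG00000160471), the testis form of complex IV subunit 6B, fell past both thresholds from a very low level. It had 23, 26 and 14 counts in the WT libraries and 7, 9 and 6 counts in the KO libraries, or 0.839, 0.868 and 1.26 CPM against 0.285, 0.334 and 0.337 CPM. The groups did not overlap (log2 fold change -1.53, SE 0.332, adjusted p = 1.72e-04). At this depth the values lie close to the floor of 3 counts per library, and 29.1% of the exon bases of COX6B2 lie under another listed gene on its strand, so its level is uncertain. The common form COX6B1 was 134 ± 11.8 CPM in WT and 119 ± 6.57 CPM in KO (-0.18 on the log2 scale, adjusted p = 0.00569, lost without WT replicate 1).

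The other tissue-restricted forms were at or near 0. COX6A2, COX7A1 and COX7B2, the muscle forms of subunits 6A and 7A and the testis form of 7B, had no count in any library, so each lies below the floors of 0.0971 to 0.270 CPM for a count of 0. COX4I2, the lung form of subunit 4, had 1 count in all, and COX8C, the testis form of subunit 8, had 8. Besides these 5, the filter removed ATP5MGL, NDUFA7 and the readthrough genes ATP5MF-PTCD1 and NDUFC2-KCTD14. NDUFA7, an accessory complex I gene, had 46 counts in all and shares exons with another listed gene on its strand, and how such reads were counted is not given in the sources used here.

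Complex I, the NADH dehydrogenase, held 43 of the 102 chain genes tested and 16 of the 38 called lower (12 of the 16 nuclear). Its share called lower, 37.2%, was near the 37.3% of all chain genes and the 32.0% of all genes tested. NDUFC2 (ENSG00000151366, chr11:78068297-78079862, minus strand), an accessory subunit of its membrane arm, was 24.7, 21.2 and 24.9 CPM in WT and 14.4, 14.8 and 13.3 CPM in KO. All KO libraries were below all WT libraries, a fall of 39.0% (log2 fold change -0.71, SE 0.0799, adjusted p = 2.62e-09). NDUFS5, an accessory subunit on the intermembrane side, was 186, 168 and 171 CPM in WT and 127, 133 and 123 CPM in KO (-0.46, SE 0.0507). NDUFB10, another accessory subunit of the membrane arm, was 129, 133 and 130 CPM in WT and 92.8, 102 and 93.4 CPM in KO (-0.44, SE 0.0502). Both fell without overlap between the groups and kept the call in all alternatives. Further accessory subunits called lower were NDUFA9 (-0.43), NDUFA5 (-0.40), NDUFA6 (-0.37), NDUFA12 (-0.27), NDUFB9 (-0.27), NDUFB3 (-0.21), NDUFB8 (-0.21), NDUFA1 (-0.16) and NDUFA8 (-0.16). Of these, NDUFB8 and NDUFA1 kept the call in 10 of 14 alternative fits, NDUFA8 in 11, NDUFB3 in 13 and the rest in all 14. NDUFB8 shares 33.8% of its exon bases with another listed gene on its strand, so its level is uncertain.

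The increases in complex I were smaller. NDUFA2, an accessory subunit of the matrix arm, was 36.7, 33.5 and 35.7 CPM in WT and 43.3, 47.1 and 42.4 CPM in KO (log2 fold change 0.33, SE 0.0616, adjusted p = 2.07e-05). NDUFS6, an accessory subunit of the same arm, was 58.9, 52.9 and 59.7 CPM in WT and 68.3, 71.0 and 69.2 CPM in KO (0.29, SE 0.0556, adjusted p = 3.34e-05). In both, every KO library was above every WT library. NDUFB11 (0.26) and NDUFA10 (0.14), both accessory, were also called higher.

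Among the nuclear core subunits of complex I, which bind NADH and carry the flavin and the iron-sulfur clusters, NDUFS7 (0.25), NDUFS1 (0.20) and NDUFV1 (0.20) were called higher, and NDUFS3 and NDUFS8 were not called. Of the 29 accessory subunits tested, 4 were higher (13.8%) and 12 lower (41.4%), with a median of -0.11. Among all genes tested, 31.9% were higher and 32.0% lower. The division into core and accessory subunits was made after the values were seen and is a description. Another core gene, NDUFV2, was listed at only 2.78 ± 0.145 CPM in WT and 3.39 ± 0.307 CPM in KO, and it shares exons with another listed gene on its strand, so its level is uncertain.

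The assembly factor NDUFAF2, which acts late in the building of complex I, had the largest increase after NDUFA4L2. It was 38.1, 37.4 and 34.3 CPM in WT and 50.3, 52.4 and 47.6 CPM in KO, with no overlap (log2 fold change 0.45, SE 0.0597, adjusted p = 9.64e-08). NDUFAF7, a methyltransferase that acts on a complex I subunit, was the only NDUFAF gene called lower (40.1 ± 2.33 CPM in WT and 32.6 ± 0.452 CPM in KO, -0.31).

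The 4 genes of complex II, succinate dehydrogenase, went different ways. SDHA, the flavoprotein that oxidises succinate, was 112, 113 and 110 CPM in WT and 139, 136 and 141 CPM in KO (log2 fold change 0.31, SE 0.0475, adjusted p = 1.10e-06). SDHB, its iron-sulfur partner, was 111, 111 and 118 CPM in WT and 91.0, 99.3 and 96.5 CPM in KO (-0.24, SE 0.0508, adjusted p = 1.14e-04). The groups did not overlap for either gene, and both calls held in all alternatives. The log2 ratio of SDHA to SDHB counts within a library was -0.02 ± 0.07 in WT and 0.54 ± 0.08 in KO, a difference of 0.56 (p = 0.1, the lowest that a two-sided exact permutation test can give here). The membrane anchors SDHC (0.05, adjusted p = 0.394) and SDHD (-0.07, adjusted p = 0.256) were not called. The ratio uses total counts of the genes and so says nothing of their levels relative to each other. SDHA shares 21.7% of its exon bases with another listed gene on its strand, and 4 listed SDHA pseudogenes held 3581 counts beside the 17270 of SDHA, so its level carries the uncertainty of how such reads were counted.

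**Figure D2:**
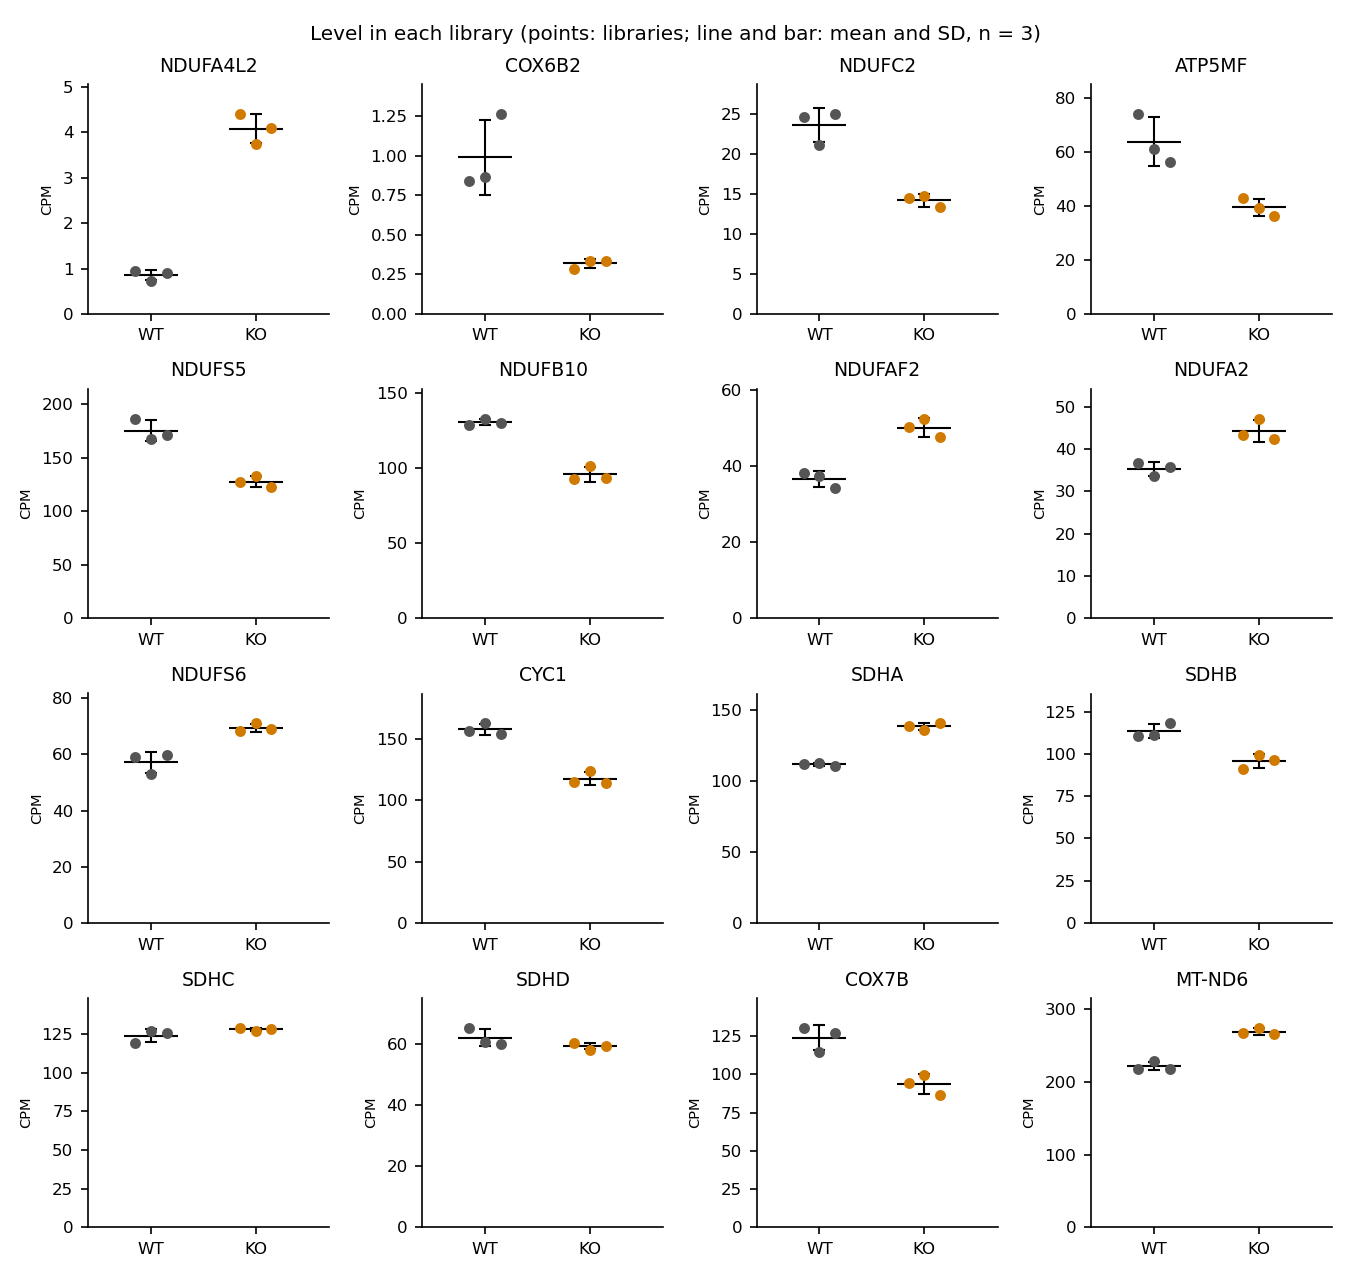
Level in CPM (library-scaled counts, y axis from 0) of 16 respiratory chain genes in the WT and KO libraries. Points are libraries, and the line and bar are the mean and SD (n = 3). NDUFA4L2 lies at 0.734 to 0.949 CPM in WT and 3.75 to 4.40 CPM in KO, SDHA is higher and SDHB lower in all KO libraries, and SDHD overlaps between the groups.

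In complex III, the cytochrome bc1 complex, CYC1 fell most. CYC1 encodes cytochrome c1, the haem subunit that hands electrons to cytochrome c, and was 157, 163 and 154 CPM in WT and 115, 124 and 114 CPM in KO. The KO libraries were all lower, by 25.5% in the fit (log2 fold change -0.42, SE 0.0493, adjusted p = 5.66e-09). UQCRC2, a core protein, fell by 0.22 on the log2 scale, UQCR10, a small subunit, fell by 0.18, and UQCRFS1, the Rieske iron-sulfur protein, fell by 0.16. For UQCR10 the groups overlapped. No nuclear gene of complex III was called higher, and UQCRC1, UQCRB, UQCRH, UQCRHL, UQCRQ and UQCR11 were not called.

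In complex IV, cytochrome c oxidase, COX7B had the largest decrease among the well expressed nuclear subunits. It was 130, 115 and 127 CPM in WT and 94.6, 99.4 and 86.5 CPM in KO (log2 fold change -0.40, SE 0.0559, adjusted p = 1.99e-07), with all KO libraries below WT. COX6C (-0.22) and COX7A2 (-0.15) were also lower, the latter not without WT replicate 1 or KO replicate 3. COX7C (0.22), COX5B (0.20) and COX8A (0.12) were higher, and the call of COX8A was lost in 8 of 14 alternative fits. COX8A shares 35.4% of its exon bases with another listed gene on its strand, so its level is uncertain. COX4I1, COX5A, COX6A1 and COX7A2L were not called. The log2 ratio of COX7A2 to COX7A2L, which encodes a factor that joins complexes III and IV, was -0.14 ± 0.03 in WT and -0.23 ± 0.07 in KO (exact permutation test, two-sided, p = 0.2).

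In complex V several genes of the membrane part and the peripheral stalk were lower, and the catalytic subunits were not called. ATP5MF (ENSG00000241468, chr7:99448475-99466186, minus strand), subunit f of the membrane part, was 74.1, 61.3 and 56.4 CPM in WT and 43.0, 39.3 and 36.5 CPM in KO. The groups did not overlap, and the level was 38.6% lower (log2 fold change -0.70, SE 0.0726, adjusted p = 4.59e-10). Of its 6 nearest tested neighbours, CPSF4 (-0.36), PTCD1 (-0.35), ZKSCAN5 (-0.24) and BUD31 (-0.14) were also lower, and ZNF789 and ZNF394 were not called. ATP5MG (-0.27) and ATP5ME (-0.21) of the membrane part, and ATP5PF (-0.29) and ATP5PO (-0.24) of the peripheral stalk, were lower as well, while the stalk subunit ATP5PB was higher (0.15). For ATP5ME the groups overlapped. ATP5MJ (-0.09) and ATP5MK (-0.03) of the membrane part and ATP5PD (0.016) of the stalk were not called.

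ATP5F1A and ATP5F1B, which encode the alpha and beta subunits that make ATP, were the most abundant nuclear chain genes by CPM and were not called. ATP5F1A was 957 ± 20.7 CPM in WT and 942 ± 12.0 CPM in KO, and ATP5F1B was 870 ± 17.6 CPM in WT and 845 ± 6.50 CPM in KO. Of the central stalk, ATP5F1C was lower (-0.26), ATP5F1D was higher (0.23, with overlapping groups) and ATP5F1E was not called. The 3 genes for the c ring, ATP5MC1 (-0.25), ATP5MC2 (-0.12) and ATP5MC3 (-0.17), which encode the same mature peptide, were all lower, although ATP5MC2 lost its call in several alternatives, upper-quartile scaling among them. The log2 ratio of ATP5MC1 to ATP5MC2 was 0.06 ± 0.03 in WT and -0.06 ± 0.06 in KO (exact permutation test, two-sided, p = 0.1).

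The 13 protein genes of the mitochondrial genome took the same share of the libraries in both groups within their spread. The share of all counts was 7.21%, 7.12% and 5.90% in the WT libraries and 6.53%, 6.72% and 6.71% in the KO libraries. WT replicate 3, the least deeply sequenced library, was the lowest and the other WT libraries the highest, so the groups overlapped (difference -0.0902 percentage points, exact permutation test, two-sided, p = 1.0). Without WT replicate 3 the difference was -0.510 points, and without WT replicate 1 or 2 it was 0.143 or 0.0969 points. The mitochondrial ribosomal RNAs took 1.56% ± 0.0655 in WT and 1.60% ± 0.0535 in KO. Per kb of transcript, the median level of the 13 genes in WT was 4884 CPM, against 81.2 CPM for the 89 nuclear chain genes tested.

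Single mitochondrial RNAs nonetheless differed. MT-ND4, a proton-pumping subunit of complex I, was 15320, 15561 and 12284 CPM in WT and 11451, 11590 and 11788 CPM in KO (log2 fold change -0.31, SE 0.0663, adjusted p = 1.42e-04). MT-ND3 was 1513, 1386 and 1285 CPM in WT and 1085, 1135 and 1152 CPM in KO (-0.31, SE 0.0533, adjusted p = 6.30e-06). The KO libraries lay below the WT libraries for both, and MT-ND1 (-0.27), MT-ND4L (-0.24) and the complex IV gene MT-CO2 (-0.14) were also lower. For MT-ND1 and MT-CO2 the groups overlapped. MT-CO2 lost its call in 8 of 14 alternative fits, whereas MT-ND1, MT-ND3, MT-ND4 and MT-ND4L lost it in none.

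MT-ND6, the only one of the 13 transcribed from the light-strand promoter, was 218, 228 and 218 CPM in WT and 267, 274 and 266 CPM in KO (log2 fold change 0.28, SE 0.0462, adjusted p = 3.55e-06). All KO libraries were above all WT libraries, and the call held in all alternatives. The library kit kept strand, but whether the counting used it is not given in the sources used here, and without strand its reads cannot be told apart from those of transcripts of the opposite strand. MT-ND2 (0.26, adjusted p = 0.0108) and MT-CYB (0.24, adjusted p = 0.00544), the cytochrome b of complex III, were called higher, but their groups overlapped. Without WT replicate 3 they were 0.08 and 0.10 and not called, and DESeq2 called neither. MT-CO1, MT-CO3, MT-ND5, MT-ATP6 and MT-ATP8 were not called.

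Expressed as a share of the 13 genes' counts, which removes the difference in total mitochondrial RNA between libraries, the composition separated the groups for 9 of the 13 genes, 5 higher and 4 lower in KO. MT-ND4 took 20.9%, 21.2% and 20.8% in WT and 17.8%, 17.5% and 17.8% in KO. MT-CYB took 7.17%, 6.54% and 6.21% in WT and 8.40%, 7.93% and 8.48% in KO. MT-ND2 took 5.28%, 5.18% and 4.30% in WT and 6.25%, 5.81% and 6.56% in KO. The groups were separate for each of these, and leaving out any library gave 9 or 10 separate shares. The mean share of MT-ND1 was 9.73% in WT and 8.44% in KO, that of MT-ND3 2.04% and 1.71%, that of MT-CO1 17.6% and 19.1%, that of MT-CO3 12.0% and 13.4%, and that of MT-ND6 0.326% and 0.410%. MT-ATP6 was separate with nearly equal means (6.79% and 6.69%), and the shares of MT-CO2, MT-ATP8, MT-ND4L and MT-ND5 overlapped. Each separate share gave p = 0.1 in an exact permutation test (two-sided), the smallest possible, and the shares of a library sum to a fixed total, so they are not independent of each other.

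Nuclear pseudogenes that copy mitochondrial genes also held reads. They took 15.7% to 18.1% of the summed counts of MT-ND2 and its pseudogenes in the 6 libraries, 17.1% to 19.6% for MT-ATP6 and 7.70% to 8.58% for MT-ND1, nearly all on a single pseudogene for each of these. For each of the other mitochondrial genes they took less than 1%. With the pseudogene counts added to their genes, 9 of 13 shares still separated the groups.

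**Figure D3:**
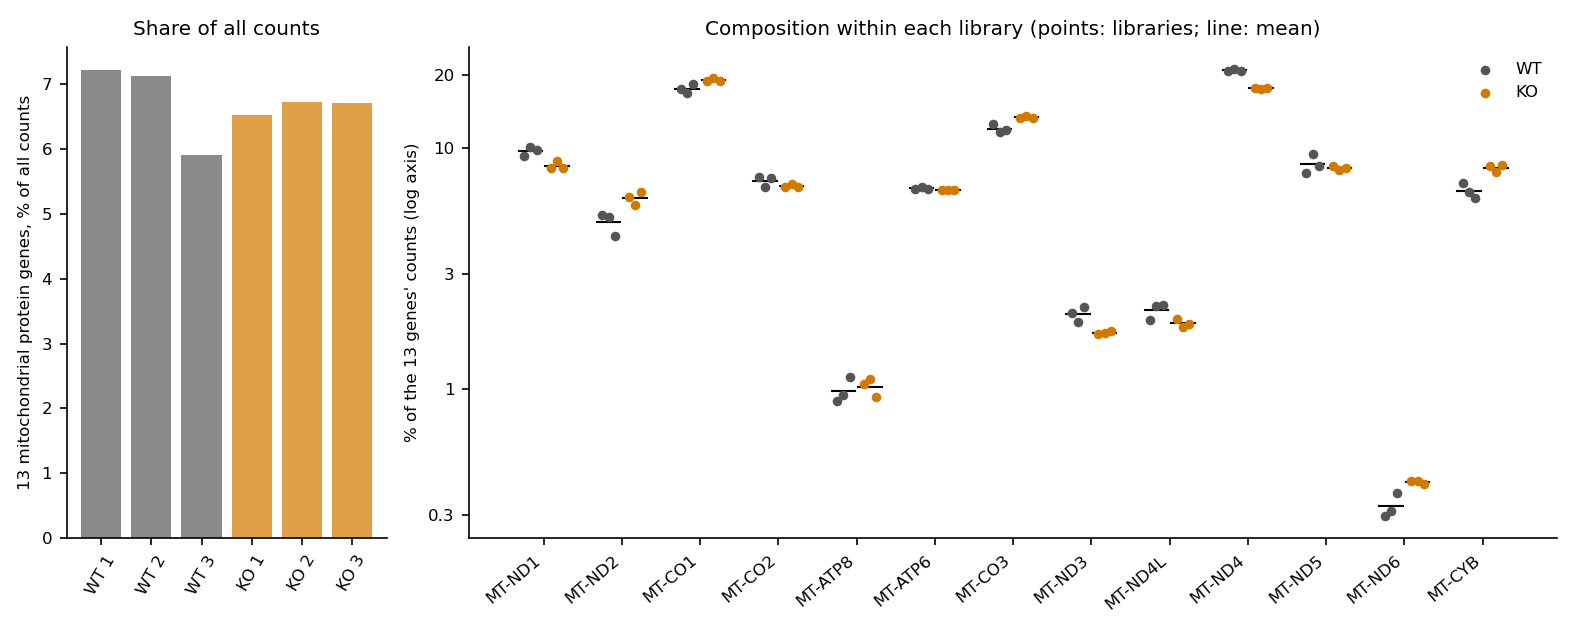
Left, the 13 mitochondrial protein genes as a percentage of all counts in each library (bars from 0). Right, each gene as a percentage of the counts of the 13 genes (log axis), with points for libraries and lines for means. The total share overlaps between WT and KO, with WT replicate 3 lowest at 5.90%, whereas MT-ND4 is lower and MT-CYB and MT-ND2 are higher in every KO library.

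The nuclear chain genes tested lie on 22 chromosomes. Of the 7 on chromosome 5, 5 were higher (SDHA, NDUFS6, NDUFAF2, COX7C and NDUFA2), 0 were lower, and NDUFS4 and UQCRQ were not called, with a median log2 fold change of 0.29. The other protein-coding genes tested on chromosome 5 had a median of 0.26 and 57.7% of the 589 were higher. Of SDHA's nearest tested neighbours, CCDC127 (0.28), PDCD6 (0.41), EXOC3 (0.33) and PLEKHG4B (2.29) were higher and AHRR was lower (-2.16). On chromosome 3, where the other genes had a median of 0.23 and 61.7% were higher, none of the 4 chain genes (UQCRC1, NDUFAF3, NDUFB4 and NDUFB5) was called and their median was 0.08. The study reports that the KO clone had doubled DNA content and almost double the modal chromosome number of the parental cells. Its composite karyotype of the clone lists added copies of chromosomes 3 and 5, among other gains. Lost copies are listed too, among them of chromosomes 7, 10, 13, 14, 17, 18, 19 and 21.

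Away from chromosome 5, 11 of 82 nuclear chain genes were higher and 33 were lower, with a median log2 fold change of -0.08. Over all genes tested, 31.9% were higher and 32.0% lower. On chromosome 7 the other genes had a median of -0.07 and 42.3% of them were lower. There, 3 of 4 chain genes (ATP5MF, NDUFA5 and NDUFA4) were lower, and the median of the 4 was -0.28. On chromosome 22 the other genes had a median of -0.15 and 49.5% of them were lower, as were both chain genes, NDUFA6 and UQCR10. In all, 55 of the 89 nuclear chain genes lay below the median of the other genes of their own chromosome, and the median difference from it over all 89 was -0.04. The part of chromosome-wide differences, or of chromosome copy number, in the fold changes of the chain genes was not tested.

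**Figure D4:**
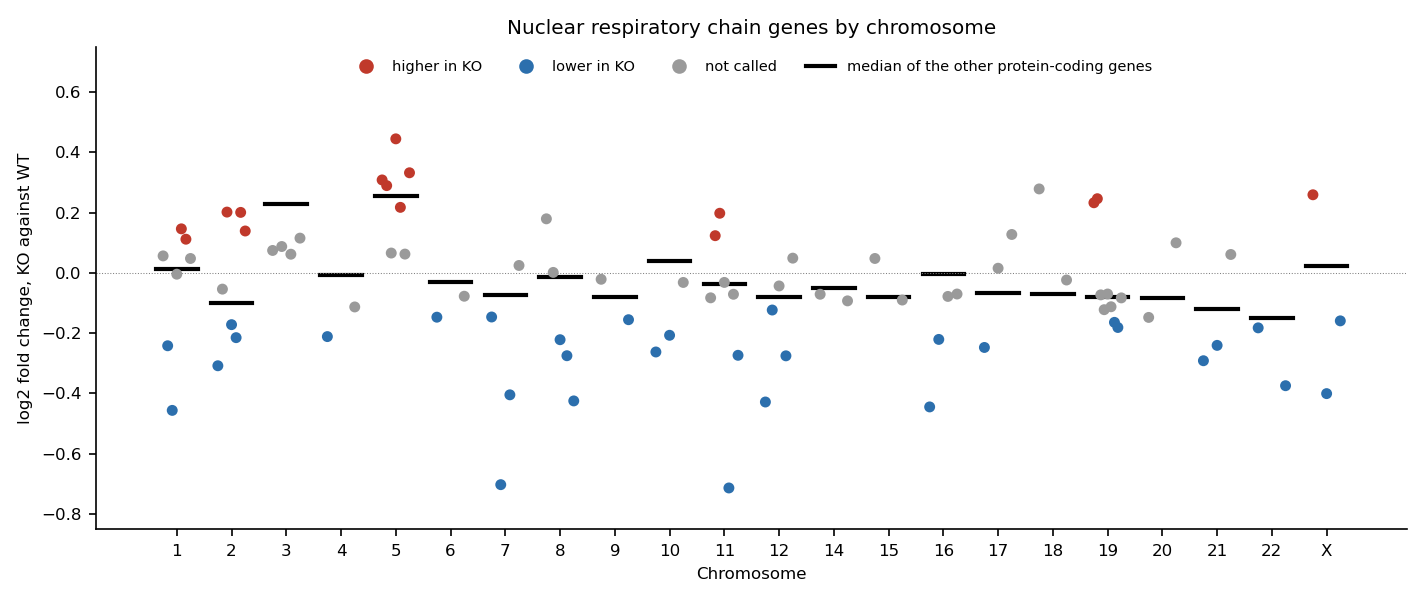
Log2 fold change (KO against WT, y axis) of the nuclear respiratory chain genes by chromosome, coloured by call. Points are genes, black lines are the median of the other protein-coding genes tested on that chromosome, and NDUFA4L2 (2.26) and COX6B2 (-1.53) are not drawn. On chromosome 5 the black line is at 0.26 and 5 of 7 genes are higher, and on chromosome 3 the line is at 0.23 and none of 4 is called.

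Promoters were read for 77 of the 98 nuclear chain genes, 95 promoters in all, from RefSeq on GRCh38.p14 (250 bases before to 50 after each start). The letters GCGCATGC, searched on both strands as a core of the NRF1 site, stood in 17.9% of these promoters, against 3.05% of all 35116 promoters and 4.64% of the 15203 promoters of tested protein-coding genes. CCGGAAG, an ETS site that GABPA can bind, stood in 26.3%, against 10.3% and 16.4%. AAGATGGC, a YY1 site, stood in 15.8%, against 2.89% and 4.70%, and the SP1 box GGGCGG stood in 61.1%, against 45.0% and 65.9%. A match is a description of the letters and not a bound site.

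Chain genes with each motif were called in both directions, against 18.6% higher and 37.3% lower over all chain genes tested and 31.9% and 32.0% over all genes. Of the 16 genes with the NRF1 letters, 3 were higher (COX5B, NDUFS6 and NDUFS7), 8 were lower and 5 were not called, and of the 23 with the ETS letters 3 were higher, 6 lower and 14 not called. Of the 13 with the YY1 letters, 2 were higher, 6 were lower, 4 were not called and 1 was not tested. Of the 48 with the SP1 letters, 11 were higher, 14 were lower, 21 were not called and 2 were not tested. The 250 bases before the start of 4 genes with the NRF1 letters are shown, 2 that were lower (SDHB and NDUFA6) and 2 that were higher (NDUFS6 and COX5B), because they carry the same motif and moved in opposite directions. They were chosen after the values were seen. Capitals mark the NRF1 letters, as GCGCATGC or its complement GCATGCGC, and in SDHB and COX5B also the ETS letters CCGGAAG.
SDHB, chr1:17054033-17054282, minus strand: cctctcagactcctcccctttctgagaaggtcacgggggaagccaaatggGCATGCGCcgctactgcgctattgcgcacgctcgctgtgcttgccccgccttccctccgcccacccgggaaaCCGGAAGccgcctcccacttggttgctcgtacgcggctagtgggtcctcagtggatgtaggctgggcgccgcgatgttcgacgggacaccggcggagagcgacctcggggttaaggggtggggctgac
NDUFA6, chr22:42090773-42091022, minus strand: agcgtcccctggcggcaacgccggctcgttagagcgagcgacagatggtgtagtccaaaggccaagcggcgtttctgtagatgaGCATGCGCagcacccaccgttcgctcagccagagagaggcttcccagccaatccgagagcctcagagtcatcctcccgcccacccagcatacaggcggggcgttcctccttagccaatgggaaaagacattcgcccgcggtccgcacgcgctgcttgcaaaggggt
NDUFS6, chr5:1801157-1801406, plus strand: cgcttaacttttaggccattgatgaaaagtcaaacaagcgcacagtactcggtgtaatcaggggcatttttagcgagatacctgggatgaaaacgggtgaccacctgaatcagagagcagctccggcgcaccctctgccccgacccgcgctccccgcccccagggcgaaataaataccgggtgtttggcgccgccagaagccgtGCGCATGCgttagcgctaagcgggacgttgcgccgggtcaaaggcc
COX5B, chr2:97645812-97646061, plus strand: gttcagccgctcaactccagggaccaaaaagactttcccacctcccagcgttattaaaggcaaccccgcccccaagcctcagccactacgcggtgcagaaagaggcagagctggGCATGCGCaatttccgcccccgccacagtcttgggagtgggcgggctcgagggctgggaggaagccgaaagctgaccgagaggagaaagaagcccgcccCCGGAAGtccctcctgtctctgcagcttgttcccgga
The NRF1 letters begin 200 bases before the start in SDHB, 166 in NDUFA6, 46 in NDUFS6 and 136 in COX5B. Beside these sequences, the log2 fold changes were -0.24 for SDHB, -0.37 for NDUFA6, 0.29 for NDUFS6 and 0.20 for COX5B. The other protein-coding genes tested had medians of 0.01 on chromosome 1 (SDHB) and -0.15 on chromosome 22 (NDUFA6). Those medians were 0.26 on chromosome 5 (NDUFS6) and -0.10 on chromosome 2 (COX5B). The part of such chromosome-wide differences in these 4 fold changes was not tested.

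Genes that serve the chain were described from lists drawn up by role, to be read against the 31.9% of all genes tested that were higher and the 32.0% that were lower. Of 58 assembly factors, among them the 8 NDUFAF genes already counted as chain genes, 15 were higher and 15 lower (25.9% each). The median log2 fold change of the 58 was 0.05. Only TMEM126B, which builds the membrane arm of complex I, passed both thresholds: it was 25.6, 24.2 and 22.2 CPM in WT and 10.1, 10.8 and 11.6 CPM in KO (-1.17, SE 0.0811, adjusted p = 3.59e-14), without overlap. Of 32 genes that transcribe mitochondrial DNA or handle its RNA, 8 were higher and 8 lower, with a median of -0.004 and none past both thresholds. The transcription factor TFB2M rose (49.1 ± 1.31 CPM in WT and 66.0 ± 0.593 CPM in KO, 0.42, adjusted p = 2.76e-08). SLIRP, which with LRPPRC stabilises mitochondrial messenger RNAs, fell (36.5 ± 1.43 CPM in WT and 25.9 ± 3.02 CPM in KO, -0.48, adjusted p = 5.41e-07). LRPPRC (-0.03, adjusted p = 0.548) and the polymerase POLRMT (-0.05, adjusted p = 0.464) were not called. TFAM, which packages mitochondrial DNA, was 63.6 ± 1.28 CPM in WT and 58.6 ± 1.20 CPM in KO (-0.12, adjusted p = 0.0499), a call lost in 13 of 15 alternatives.

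Of 17 tested regulators of respiratory gene expression, 5 were higher (29.4%) and 8 lower (47.1%), with a median of -0.11. The largest decrease was that of EPAS1 (HIF-2 alpha): 60.9, 66.1 and 64.7 CPM in WT and 4.68, 3.68 and 5.23 CPM in KO (log2 fold change -3.84, SE 0.0865, adjusted p = 1.25e-27). HIF1A, the related hypoxia factor, was 107, 117 and 103 CPM in WT and 51.9, 52.1 and 53.9 CPM in KO (-1.06, SE 0.0545, adjusted p = 1.29e-17). Both fell without overlap. SP1, at 140 ± 3.27 CPM in WT, rose to 347 ± 25.1 CPM in KO (1.31, adjusted p = 1.10e-20). NRF1 was 23.6 ± 1.86 CPM in WT and 18.4 ± 0.667 CPM in KO (-0.35, adjusted p = 1.27e-04). GABPA was 44.7 ± 2.48 and 40.1 ± 3.83 CPM (-0.15, adjusted p = 0.0446, lost in 11 of 15 alternatives), ESRRA was not called (-0.13, adjusted p = 0.0535), and PPARGC1A, the coactivator of mitochondrial biogenesis, had 1 count in all libraries together.

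Of 21 tested genes for the electron carriers and coenzyme Q, 7 were higher (33.3%) and 6 lower (28.6%), with a median of 0.03. COQ8A, needed for coenzyme Q synthesis, rose from 45.1 ± 2.97 to 91.1 ± 4.97 CPM (log2 fold change 1.01, adjusted p = 2.39e-16), and SQOR, which passes electrons from sulfide to coenzyme Q, from 0.837 ± 0.181 to 2.59 ± 0.248 CPM (1.53, adjusted p = 1.66e-07). Of 27 genes of the tricarboxylic acid cycle and pyruvate entry, 7 were higher (25.9%), 9 lower (33.3%) and none past both thresholds, with a median of -0.04. Of 13 genes that exchange ATP and phosphate, 4 were higher (30.8%) and 8 lower (61.5%), with a median of -0.28. The same shares over all genes tested were 31.9% and 32.0%. AK4, a mitochondrial adenylate kinase, rose from 7.57 ± 0.570 to 26.1 ± 1.55 CPM (1.82, adjusted p = 9.76e-19).

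The mitochondrial creatine kinase gene CKMT1A had 83 to 217 counts in each WT library and 0 in every KO library, so it was at least 44.1-fold lower, taking the highest KO floor of 3 counts per library. Its near-identical copy CKMT1B was 7.32 ± 0.696 CPM in WT and 3.58 ± 0.184 CPM in KO, and reads can be split between these copies. Of 6 genes that remove mitochondrial peroxide, 2 were higher and 2 lower (33.3% each), with a median of -0.01. TXNRD2 fell from 79.3 ± 3.19 to 29.2 ± 2.40 CPM (-1.45, adjusted p = 6.17e-20) and GPX1 rose from 25.2 ± 2.74 to 67.9 ± 1.66 CPM (1.42, adjusted p = 5.59e-19).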

How the data were processed

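RNA-seq counts were compared between 3 WT and 3 CDK12 KO libraries of A2780 cells, grouped by the genotype in the labels, which pair no libraries. The values the authors deposited are unnormalised counts per gene, from stranded, single-ended reads of 75 bases. Per the labels and the study's methods these were checked with FastQC, aligned to GRCh38 with STAR and counted with HTSeq, and versions, strand setting and treatment of multi-mapped reads are not given in the sources used here. Identifiers were matched to GENCODE 44. Genes passing filterByExpr (minimum count 10, minimum total 15) were scaled with TMM and tested in edgeR 4.0.16 (R 4.3.3) by the two-sided quasi-likelihood test with Benjamini-Hochberg adjustment over 16198 genes. The thresholds (adjusted p 0.05, log2 fold change 1 in size) follow the study, and voom/limma, its tool, was an alternative. CPM used TMM-scaled totals, and levels per kb used the canonical transcript. SE is the standard error of the log2 fold change. Single values were compared by exact permutation. Totals of 11098400 to 30899045 counts set floors of 0.0971 to 0.270 CPM. Reads carried no molecular identifiers, so floors cover counting error only. On simulated data for KO against WT (14084 genes), the test found 100 of 100 changes of 1.5 and 82 of 100 of 0.5 on the log2 scale, with 8 false calls. The simulation gave every gene the same spread between libraries (a coefficient of variation of 4.35%) and changed far fewer genes than were called here. The median size of change of the chain genes was 0.15, below both sizes simulated, so these rates need not hold for their calls.

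The chain genes and the lists were chosen with earlier results of these data known. Named genes are those past both thresholds, the 5 nuclear genes with the largest change in each direction among those called with separate groups, the mitochondrial genes, SDHA to SDHD, CYC1, isoform pairs, genes the filter removed, 6 fixed regulators, and list genes past both thresholds. Other names (further members, core subunits, neighbours, TFB2M, SLIRP, LRPPRC, CKMT1B) were chosen after the values were seen. SCO2, FASTKD4 and SOD2, written in the lists, were not used here. Of the chain genes, 65 have pseudogenes of their name among the listed genes, on which the counting could split reads. One chain gene is counted in the totals and is not reported here by itself.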

Additional observations from a re-analysis of the deposited data

How the results depend on the processing

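No paired analysis was possible because the labels pair no WT library with a KO library. Across voom/limma, DESeq2, other scalings and filters, thinned libraries, a stricter adjusted p, each library left out and the list without assembly factors and readthrough genes, 15 to 22 chain genes were higher and 31 to 41 lower. In each of 14 alternative fits, 15 of the 19 higher and 26 of the 38 lower calls were kept. Upper-quartile scaling gave 22 higher and 34 lower. The number of mitochondrial genes called higher (3) was 1 with DESeq2 and 1 to 4 with a library left out (1 without WT replicate 3). The number of chain genes lower past both thresholds (1) was 0 with at least 10 counts in every library or with thinned libraries, both of which leave COX6B2 untested, and 1 to 2 with a library left out (2 without KO replicate 2). With a library left out, the log2 fold changes of 15 of the 45 uncalled chain genes crossed 0 and 13 of the 45 were called. Among the genes named by rule the crossing ones were MT-CO1 (-0.015 to 0.10), MT-ATP8 (-0.057 to 0.065), MT-CO3 (-0.015 to 0.17), MT-ND5 (-0.23 to 0.011) and COX6A1 (-0.052 to 0.15). The median of the mitochondrial genes was -0.19 without WT replicate 3 and 0.01 without WT replicate 2. Where no construction is named, the cause was not tested. Depth limits COX6B2, NDUFA4L2 and NDUFV2. Adding pseudogene counts, and leaving out libraries for the mitochondrial shares, were chosen after seeing the data.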
